A study of Mus musculus with 8 samples.

Results

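CD34bright and CD48dim progenitors of mouse bone marrow were compared over 4 of the 8 RNA-seq libraries of the series, 2 for each fraction. The libraries were grouped by their sort labels, and all 24411 genes of the deposited tables were read in both directions. The comparison itself was chosen with earlier results of these data known. Every library came from the bone marrow of wild type C57BL/6 mice, and every fraction was KIT+ and CD16/32-, within the common myeloid progenitors that the study had parted by single-cell clustering. The CD34bright fraction was CD41+ CD9+ with bright CD34, and its label names no CD48 gate. The CD48dim fraction was CD41+ CD9+ too, but CD34dim and CD48dim. The other 4 libraries are 2 of a CD48bright fraction (CD34dim CD41+ CD9+) and 2 of a CD34dim CD41- CD9- fraction, called CD41/CD9-negative here. They shared the model and so the estimate of spread. Ages, treatments and the number of mice or sorts behind the replicate numbers are in none of the labels, and the p-values therefore reflect only how these libraries varied, technical variation included.

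Common myeloid progenitors are KIT-positive cells that give rise to granulocytes, monocytes, red cells and megakaryocytes, and they are a mixture of cells that already lean to single lineages. CD34 is a sialomucin of early progenitors. CD48 is a SLAM family ligand that is low on stem cells and higher on committed progenitors. CD41, encoded by Itga2b, is the platelet integrin that also marks early progenitors, and CD9 is a tetraspanin of megakaryocyte-leaning cells.

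The gene lists were chosen with earlier results of these data known, so their counts of calls are descriptions only. Of 24 monocyte and dendritic cell genes, 9 were called higher in CD34bright cells, among them Irf8 and Csf1r. Of 24 mitosis genes, 6 were called higher, among them Ccnb1 and Cdk1, as was the mast cell protease gene Cpa3. The stem cell regulator gene Mecom, the red cell genes Car1 and Ermap and Dst, which encodes the cytoskeletal linker dystonin, were called lower. Of 13177 genes tested, 76 were called (0.577%), 48 higher (0.364%) and 28 lower (0.212%) in CD34bright, at an adjusted p below 0.05 in edgeR's quasi-likelihood test. All 76 are protein coding, and for all 76 the 2 CD34bright libraries did not overlap the 2 CD48dim libraries. The share of all tested genes without overlap is not given here. These genes were called for the same difference, so a lack of overlap, here and for single called genes below, adds no separate support. The smallest log2 fold changes among them were 1.75 upward and -1.90 downward. At an unadjusted p below 0.05 in edgeR there were 2505 of the 13177 genes, 1088 higher and 1417 lower. Of all tested genes, 47% had a positive sign. Counts of list members at that unadjusted level or by sign, given below, are to be read beside these. In bulk samples, fewer cells of a type and less RNA per cell cannot be told apart.

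**Figure D1:**
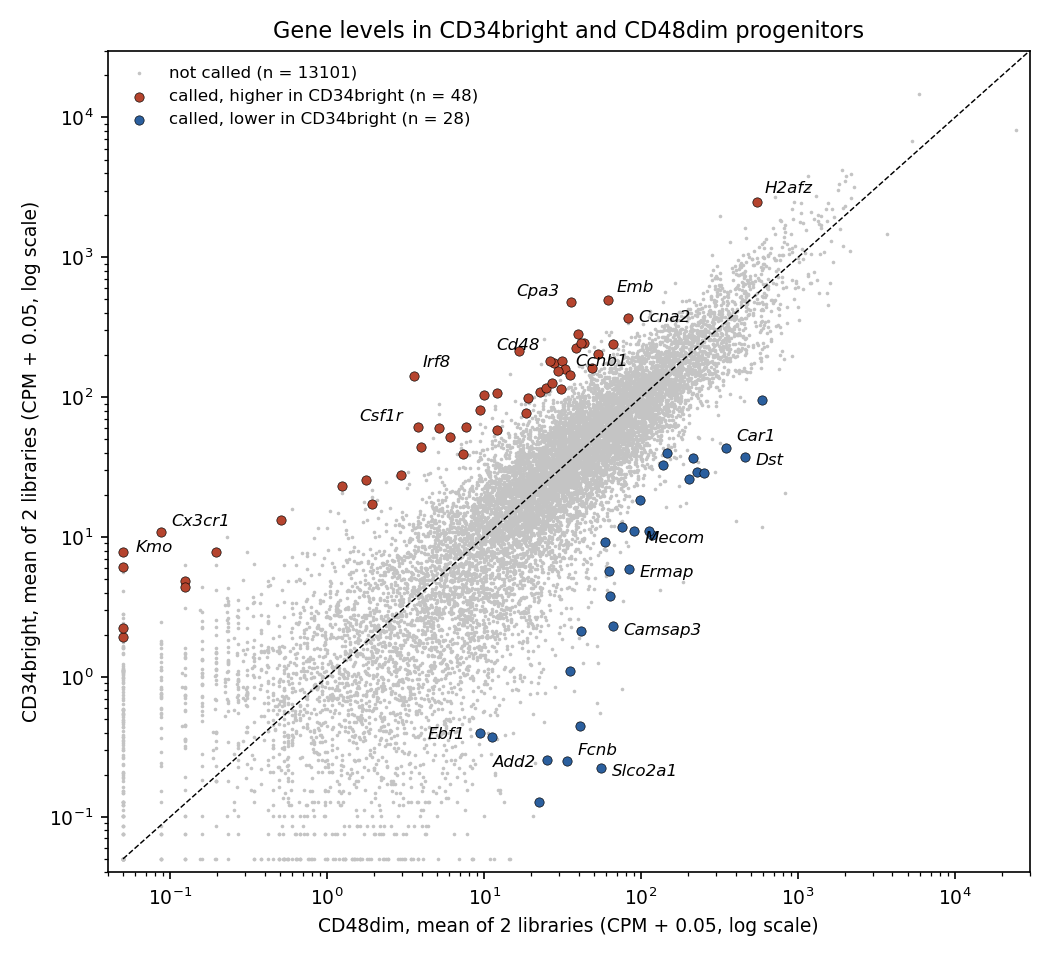
Mean level of each of 13177 tested genes in CD48dim (x axis) and CD34bright (y axis) progenitors, in CPM (counts scaled to a common library total) plus 0.05 on log scales, with 2 libraries in each mean. The 48 genes called higher in CD34bright lie above the dashed line of equal level and the 28 called lower lie below it, and most genes not called lie in the cloud around the line.

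The calls depended on which libraries were in the fit. With any 1 of the 6 libraries outside the CD48dim fraction left out, namely replicate 1 or 2 of CD34bright, CD48bright or CD41/CD9-negative cells, edgeR called 0 genes, as did an edgeR fit of the 4 compared libraries alone (smallest adjusted p = 0.24, with 1590 genes at an unadjusted p below 0.05). It called more than 76 genes without CD48dim replicate 1 and also without CD48dim replicate 2. In those fits 1 library remained in the CD48dim fraction and gave no spread within it. Why the counts rose was not tested. DESeq2 called 1288 of the 13177 genes, 537 higher and 751 lower, and its counts for a gene list are to be read beside these. Limma-voom called 45, 22 higher and 23 lower, and edgeR with no filter on low counts called 1018, 445 higher and 573 lower. All 76 genes kept their sign in each of these fits and in every fit with a library left out. Each count of called members given for a gene list is therefore 0 in the 4-library fit and without any of the 6 libraries named first.

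**Figure D2:**
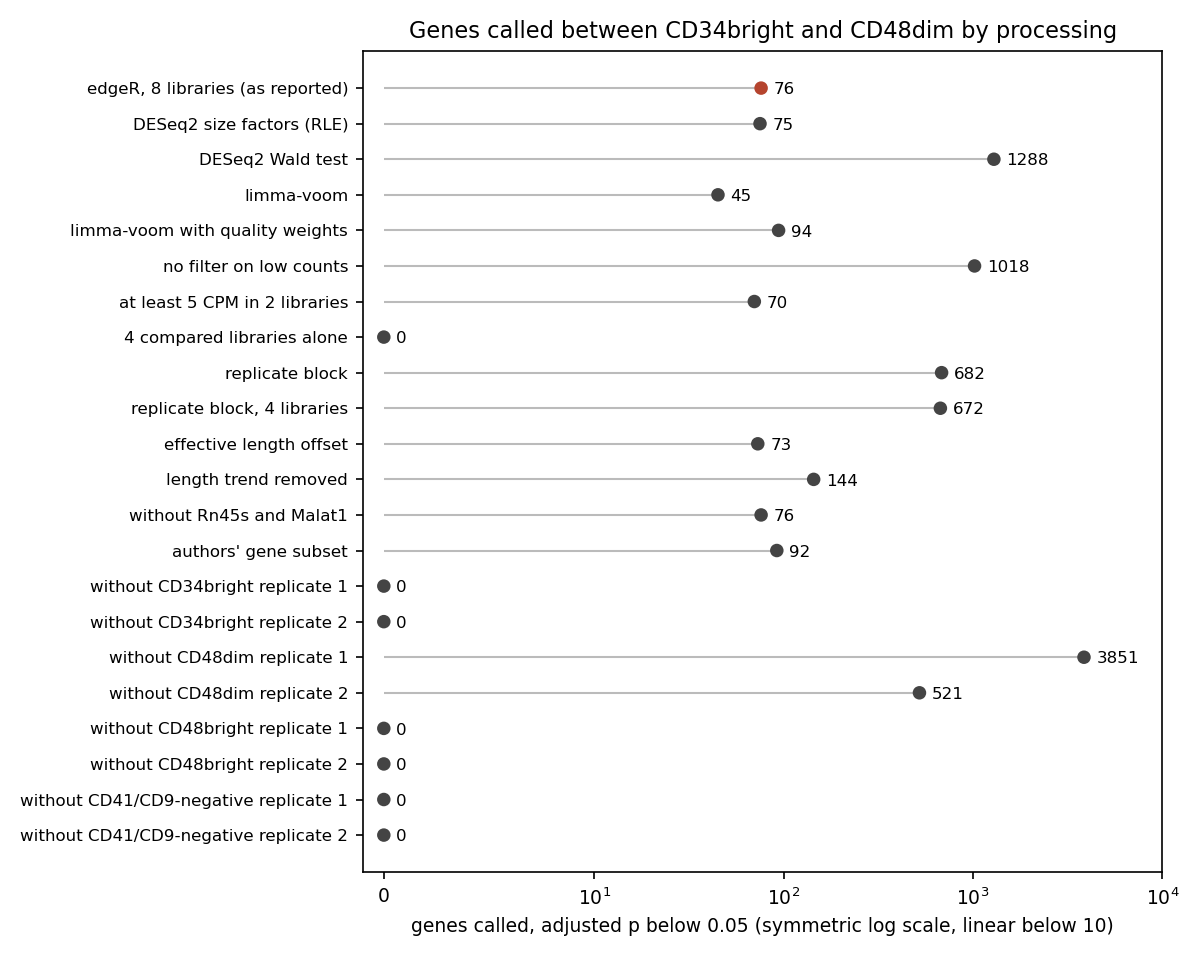
Number of genes called between CD34bright and CD48dim progenitors (x axis, symmetric log scale that is linear below 10) under each way of processing (y axis). The count was 76 as reported, 0 in the fit of 4 libraries and in 6 of the fits with a library left out, and 3851 without CD48dim replicate 1.

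The CD48dim libraries were unlike each other. Total expected counts were 20632005 and 15017611 in CD34bright, 12753193 and 7237587 in CD48dim, and between 10318447 and 19594630 in the other 4. Of the tested genes, 47.7% were more than 2-fold apart between the 2 CD48dim libraries, against 9.08% in CD34bright and 15.4% and 18.5% in the other fractions. The nuclear RNA Malat1 was at 38950 CPM in CD48dim replicate 2 and between 5004 and 14870 CPM in the other 7 libraries, where CPM is the count scaled by the library total and its TMM factor. Ribosomal protein genes took 2.38% of the counts in CD48dim replicate 2 and 5.21% to 9.78% elsewhere. Level moved with gene length in that library. The median log2 difference of CD48dim replicate 2 from replicate 1 was -0.83 in the shortest 25% of genes by effective length and 0.36 in the longest 25%. The part of these differences in the results was not tested one by one, but with each library's trend of level on length removed, a choice made after seeing the data, edgeR called 144 genes, 78 higher and 66 lower, and 66 of the 76 kept their call.

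The sort markers followed the gates in direction. Cd48 (chromosome 1, 171682009 to 171705258, GRCm38) was at 209 and 157 CPM in the CD34bright libraries and at 35.8 and 16.9 CPM in the CD48dim libraries. The fractions did not overlap, and the log2 fold change of Cd48 was 2.79 ± 0.42 (SE, edgeR, adjusted p = 0.0374). CD48 is not named in the CD34bright gate, but the other side was sorted as CD48dim, so this difference adds nothing beyond the sort. Mean Cd48 was 183 CPM in CD34bright, 204 CPM in CD48bright and 233.5 CPM in CD41/CD9-negative cells. Cd34 (chromosome 1, 194938819 to 194961279) was at 509.6 and 461 CPM against 197 and 166 CPM. Its libraries did not overlap either, but the log2 difference of 1.42 ± 0.39 did not pass (edgeR adjusted p = 0.112). The genes of the markers that both gates share, Kit, Itga2b and Cd9, had log2 differences of -0.71 ± 0.37, -0.57 ± 0.36 and 0.29 ± 0.63, with edgeR adjusted p-values of 0.327, 0.419 and 0.839. Fcgr3 and Fcgr2b, which encode the low-affinity Fc receptors of the CD16/32 gate, were read in all 4 libraries at 3.02 to 47.0 CPM and 13.5 to 41.2 CPM and were not called (edgeR adjusted p = 0.684 and 0.249).

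Among the gene lists, that of monocyte and dendritic cell genes held the most higher calls. Of its 24 genes, all tested, 9 were called higher and 0 lower, 11 were higher and 2 lower at an unadjusted p below 0.05, and 16 were positive against 47% of all tested genes. Irf8, the transcription factor that directs progenitors to the monocyte and dendritic lineages (chromosome 8, 120736358 to 120756694), was at 143.2 and 141.4 CPM in CD34bright and 6.83 and 0.275 CPM in CD48dim. The CD34bright libraries were nearly equal and both far above the CD48dim libraries, which differed from each other. Its log2 fold change was 5.24 ± 0.90 (edgeR adjusted p = 0.0436). Csf1r, the receptor for macrophage colony stimulating factor (chromosome 18, 61100598 to 61132149), was at 60.4 and 62.4 CPM against 6.09 and 1.37 CPM, a rise of 3.99 ± 0.60 (adjusted p = 0.0374). Mpeg1, which encodes a pore-forming protein of phagocytes (chromosome 19, 12460779 to 12465283), was at 91.3 and 70.0 CPM against 7.56 and 11.3 CPM, a rise of 3.11 ± 0.37 (adjusted p = 0.0269). Ly86, whose product partners a relative of the Toll-like receptors, was at 49.3 and 39.4 CPM against 1.47 and 6.32 CPM, a rise of 3.56 ± 0.60 (adjusted p = 0.0418). In none of these genes did the CD34bright and CD48dim fractions overlap. Means of Irf8, Csf1r, Mpeg1 and Ly86 were 188.5, 48.25, 180.6 and 37.51 CPM in CD48bright cells. In CD41/CD9-negative cells they were 962.4, 133, 771.7 and 247.7 CPM. The median log2 difference of the list between CD34bright and CD48bright was -1.57, so the list was not highest in CD34bright by that measure. Ly86 was not called with the length trend removed (2.71, adjusted p = 0.114).

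The other called members of the list were rare in CD34bright cells and at or near 0 counts in CD48dim cells. Kmo, a kynurenine pathway enzyme (chromosome 1, 175620381 to 175662116), was at 8.82 and 6.61 CPM in CD34bright and at 0 counts in both CD48dim libraries, at least 55-fold higher over a floor of 3 counts for the fraction. The lectin gene Cd209a was at 2.79 and 9.38 CPM and at least 38.7-fold higher, and the interferon-inducible gene Ifi205 was at 1.75 and 2.63 CPM and at least 14.8-fold higher, with 0 counts in CD48dim for both. Cx3cr1, the fractalkine receptor, had 376 counts in CD34bright and 1 in CD48dim, a ratio of 235 with a 95% interval of 41.9 to 9300. Itgax, the integrin CD11c, had 144 counts against 2, a ratio of 45 (12.2 to 375). These intervals and floors cover counting error only, and the labels name no molecular identifiers for these amplified libraries. The edgeR adjusted p-values of these 5 genes were between 0.0239 and 0.0388. The list was not uniform. Among its uncalled members the antigen presentation genes Cd74, H2-Aa, H2-Ab1 and H2-Eb1 had log2 differences of -0.17, -0.13, 0.80 and -0.37, and the lysozyme gene Lyz2 had -0.77. The median of the list was 2.58, and 1.66 with the 5 genes that are at 0 counts in CD48dim set at their bound, against -0.07 over all tested genes. The summed level of the list was 996.5 and 1013 CPM in CD34bright and 894 and 674 CPM in CD48dim, of which the uncalled Lyz2 alone made up 279 and 213 CPM in CD34bright and 565 and 276 CPM in CD48dim. The median was 2.57 without CD48dim replicate 1 and 2.71 without replicate 2. Limma-voom called 2 members higher, and limma-voom with a quality weight for each library called 0 of the 24 in either direction. The libraries carry no strand, and the spans of Csf1r, Cx3cr1 and Kmo overlap the counted genes Hmgxb3, Wdr48 and Fh1, so reads in the shared stretches could belong to either gene.

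**Figure D3:**
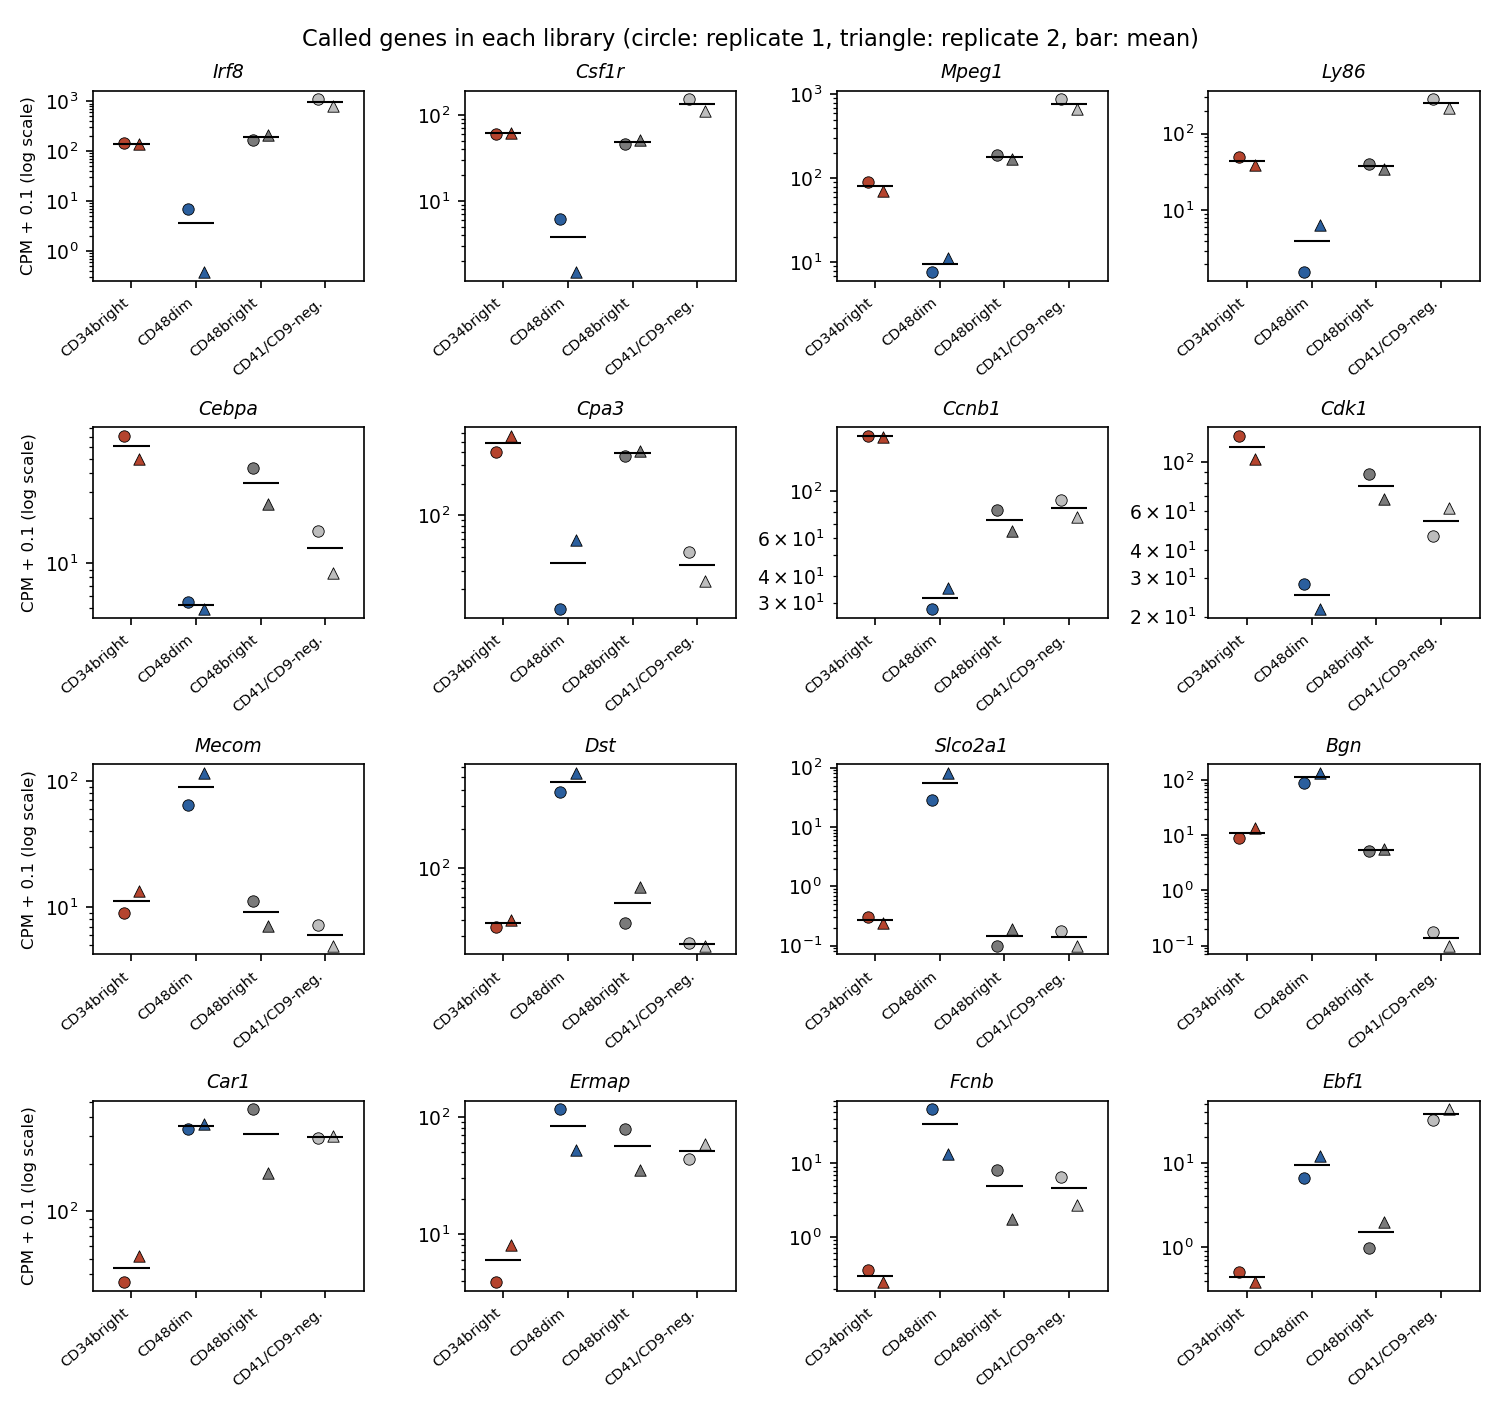
Level of 16 called genes in each of the 8 libraries, in CPM plus 0.1 on log scales, with circles for replicate 1, triangles for replicate 2 and a bar at the mean. Irf8 lies at 143.2 and 141.4 in CD34bright and 6.83 and 0.275 in CD48dim, while Slco2a1 lies at 0.206 and 0.142 in CD34bright and 28.9 and 82.3 in CD48dim.

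Few neutrophil genes were called. Of 16 tested genes of the primary granule list (17 in the list), Cebpa was called higher and Fcnb lower. Cebpa, the transcription factor that granulocyte and monocyte progenitors need (chromosome 7, 35119293 to 35121928), was at 70.9 and 49.7 CPM in CD34bright and 5.36 and 4.81 CPM in CD48dim. The libraries of each fraction lay close together, and Cebpa rose by 3.56 ± 0.54 (edgeR adjusted p = 0.0374). Fcnb, the lectin ficolin B of maturing neutrophils (chromosome 2, 28076378 to 28084885), was at 0.258 and 0.142 CPM against 54.0 and 13.5 CPM and changed by a log2 fold change of -7.31 ± 1.24 (adjusted p = 0.0424). The abundant granule enzyme genes did not pass. Mpo was at 16430 and 12860 CPM against 9789 and 2103 CPM (adjusted p = 0.352), and Elane was at 1033 and 1375 CPM against 2874 and 1011 CPM (-0.69 ± 0.58, adjusted p = 0.554). Without CD48dim replicate 1 the list's median moved from 0.65 to 1.84.

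Transcripts of mature neutrophils were present in CD48dim libraries at levels far apart. The 10 genes of that list, all tested, summed to 131 and 166 CPM in CD34bright and to 4175 and 625 CPM in CD48dim. S100a8 was at 9.44 and 14.1 CPM against 989.6 and 190.5 CPM, and Ngp was at 12.9 and 13.1 CPM against 735 and 72.4 CPM. In each gene the libraries of the fractions did not overlap, but edgeR called 0 of the 10 over all genes tested (8 lower and 1 higher at an unadjusted p below 0.05). The median log2 difference was -4.82, with 9 of 10 negative. DESeq2 called 8 lower and 1 higher. The gene that went the other way was Cxcr2, a chemokine receptor, at 55.9 and 86.9 CPM against 11.1 and 11.3 CPM (2.67 ± 0.49, edgeR adjusted p = 0.053). All 10 genes had counts in both fractions, and Fcnb moved with this list. Its part in the Fcnb result was not tested.

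Mast cell and basophil RNA was higher in CD34bright for the protease gene Cpa3. Cpa3, mast cell carboxypeptidase (chromosome 3, 20215620 to 20242181), was at 396.5 and 565 CPM in CD34bright and 12.9 and 58.3 CPM in CD48dim. The fractions were separate although the CD48dim libraries lay far from each other, and Cpa3 rose by 3.76 ± 0.67 (edgeR adjusted p = 0.0481). Mean Cpa3 was 385 CPM in CD48bright and 34.1 CPM in CD41/CD9-negative cells. Cpa3 was the only call among 14 tested genes of the list (16 in the list), where 8 were higher at an unadjusted p below 0.05. The IgE receptor subunit genes Fcer1a and Ms4a2 were at 29.5 and 67.5 CPM against 2.79 and 16.1 CPM, and at 69.7 and 85.2 CPM against 5.14 and 32.0 CPM (edgeR adjusted p = 0.163 and 0.166). Eosinophil granule genes Epx and Prg2 had log2 differences of -2.69 and -0.49 and were not called. Cpa3 was not called with the length trend removed (3.19, adjusted p = 0.0809) nor with the size factors of DESeq2 (3.73, adjusted p = 0.0518). Without CD48dim replicate 1 there were 4 higher calls in this list, and without replicate 2 there were 5. The summed level of the list was 999.6 and 1200 CPM in CD34bright and 248 and 322 CPM in CD48dim.

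The 280 bases around the start of Cpa3 are shown because Cpa3 had the highest TPM among the named genes called higher outside the histone genes, and its promoter holds letters of both GATA and RUNX motifs. The sequence runs 5′ to 3′ on the minus strand of GRCm38.p6, from RefSeq, at chr3:20242152-20242431, with 250 bases before the start and 30 after it. Capitals mark AGATAA, the letters searched for GATA factors, and the reverse complement of TGTGGT, those for RUNX factors.
Cpa3: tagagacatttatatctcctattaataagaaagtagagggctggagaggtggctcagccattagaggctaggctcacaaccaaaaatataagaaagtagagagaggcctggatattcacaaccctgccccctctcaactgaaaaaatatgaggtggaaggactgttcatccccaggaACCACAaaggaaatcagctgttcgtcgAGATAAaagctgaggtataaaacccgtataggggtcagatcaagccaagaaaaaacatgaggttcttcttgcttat
AGATAA was found on either strand in 8.7% of 46 promoters of genes called higher, in 0% of 25 promoters of genes called lower and in 11.2% of all 32851 promoters of the table, and TGTGGT in 13%, 16% and 16.8%. These shares were read over 300 bases, 250 before to 50 after each start. RefSeq promoters were matched for 37 of the 48 higher and 19 of the 28 lower genes. Of the other motifs, the PU.1 letters GAGGAAGT were in 10.9% of promoters of higher genes, 0% of those of lower genes and 3.2% of all, and the ETS letters ACCGGAAG in 8.7%, 0% and 2.3%. The shares for CAGATG (the TAL1 E-box) were 13%, 12% and 17.2%, those for an interferon response element 2.17%, 8% and 3.44%, those for TGACTCA (AP-1) 4.35%, 0% and 5.2%, and those for TTGCGCAA (C/EBP) 0%, 0% and 0.183%. A match is a stretch of letters and not a bound site.

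Lymphoid genes gave 3 calls of 18, all higher. Rag2, a recombinase subunit, was at 6.81 and 8.81 CPM in CD34bright and 0.294 and 0 CPM in CD48dim, a rise of 5.36 ± 0.83 (edgeR adjusted p = 0.0374). Its span overlaps B230118H07Rik, which has 2716 counts over the 8 libraries against 2723 for Rag2, and libraries without strand cannot part the reads of overlapping genes. Satb1, a chromatin organiser of lymphoid cells (chromosome 17, 51736187 to 51833290), was at 138 and 148 CPM against 38.1 and 32.8 CPM, a rise of 2.01 ± 0.36 (adjusted p = 0.0479). Cd53, a tetraspanin of leukocytes, was at 265 and 302 CPM against 53.5 and 26.3 CPM, a rise of 2.83 ± 0.42 (adjusted p = 0.0374). Means of Rag2, Satb1 and Cd53 were 4.85, 119 and 242 CPM in CD48bright cells. In CD41/CD9-negative cells they were 92.7, 535 and 431 CPM, so CD34bright was not the highest fraction for any of them. CD34bright and CD48dim did not overlap in these 3 genes, but the median of the list was 0.33, and Flt3, Ikzf1 and Notch1 had differences of 0.34, -0.15 and 0.00. Limma-voom called 1 of the 18, and the list's median was 0.39 without CD48dim replicate 1 and 0.42 without replicate 2. Of 12 B cell genes, Ebf1 was the only call. Ebf1, the factor that starts the B lineage (chromosome 11, 44617317 to 45008091), was at 0.413 and 0.284 CPM in CD34bright and at 6.53 and 12.1 CPM in CD48dim, and its log2 fold change was -4.68 ± 0.75 (adjusted p = 0.0374). Mean Ebf1 was 1.40 CPM in CD48bright and 37.3 CPM in CD41/CD9-negative cells. Pax5 was at 0 counts in both CD34bright libraries and at 1.18 and 0 CPM in CD48dim. The median of the B cell list was -1.73, and 0.57 without CD48dim replicate 1. Of 10 tested genes of the T and NK cell list, edgeR called 0 (1 higher at an unadjusted p below 0.05, and 1 by DESeq2). That list shares Nkg7 with the neutrophil primary granule list and Gzmb with the basophil, eosinophil and mast cell list. Its median of 0.98, or 0.48 with 3 genes at their bound, became 0.16 without CD48dim replicate 2 and 3.09 without replicate 1.

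All 24 mitosis genes of the list were tested and had a positive sign, and 6 were called higher in CD34bright cells. In the cell cycle, cyclin A2 and the B cyclins switch on the kinase CDK1 to drive cells into mitosis, Aurora B corrects the attachment of chromosomes, and UBE2C loads ubiquitin for the complex that ends mitosis. Ccnb1, cyclin B1 (chromosome 13, 100778650 to 100786570), was at 181 and 179 CPM in CD34bright and 27.9 and 35.0 CPM in CD48dim. Both fractions were tight and apart, and Ccnb1 rose by 2.52 ± 0.33 (edgeR adjusted p = 0.0289). Cdk1 (chromosome 10, 69335146 to 69352938) was at 131 and 102.5 CPM against 28.1 and 21.6 CPM, a rise of 2.23 ± 0.36 (adjusted p = 0.038). Ccna2 was at 345 and 389 CPM against 95.4 and 69.0 CPM (2.16 ± 0.35), and Aurkb at 183 and 222 CPM against 60.8 and 45.4 CPM (1.93 ± 0.32). Ube2c was at 214 and 271 CPM against 58.7 and 24.6 CPM (2.54 ± 0.44), and Ccnb2 at 152 and 174 CPM against 51.5 and 45.6 CPM (1.75 ± 0.31). The adjusted p-values of these 4 genes were between 0.0374 and 0.0498. The list's median log2 fold change was 1.69, and 21 of 24 members were higher at an unadjusted p below 0.05. The median was 1.73 without CD48dim replicate 1 and 1.75 without replicate 2, and DESeq2 called 19 members higher. With the length trend removed there were 10 calls, but Ccnb2 was not called (1.44, edgeR adjusted p = 0.0694). Mki67 was the member nearest to 0 (0.23 ± 0.53), at 1980 and 2560 CPM against 959 and 2916 CPM, where the CD48dim libraries lay on either side of the CD34bright libraries.

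The promoters of 4 of the called mitosis genes are shown because these genes moved together. Of the known elements of mitosis promoters, the CCAAT box is in each, and the CHR element TTTGAA is in Ccnb2, Cdk1 and Ube2c. The promoters are RefSeq sequences on GRCm38.p6, 5′ to 3′ on the strand of the gene, with 250 bases before the start and 30 after it. Their places are chr13:100786457-100786736 on the minus strand for Ccnb1, chr9:70421525-70421804 on the minus strand for Ccnb2, chr10:69352883-69353162 on the minus strand for Cdk1 and chr2:164769679-164769958 on the plus strand for Ube2c. Capitals mark TTTGAA and CCAAT on either strand, so that TTCAAA and ATTGG are the same motifs on the other strand.
Ccnb1: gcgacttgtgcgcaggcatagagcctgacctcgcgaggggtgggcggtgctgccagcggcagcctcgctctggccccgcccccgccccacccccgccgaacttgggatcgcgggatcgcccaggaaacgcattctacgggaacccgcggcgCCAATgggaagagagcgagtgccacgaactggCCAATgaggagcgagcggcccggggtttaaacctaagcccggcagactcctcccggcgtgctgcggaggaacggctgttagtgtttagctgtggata
Ccnb2: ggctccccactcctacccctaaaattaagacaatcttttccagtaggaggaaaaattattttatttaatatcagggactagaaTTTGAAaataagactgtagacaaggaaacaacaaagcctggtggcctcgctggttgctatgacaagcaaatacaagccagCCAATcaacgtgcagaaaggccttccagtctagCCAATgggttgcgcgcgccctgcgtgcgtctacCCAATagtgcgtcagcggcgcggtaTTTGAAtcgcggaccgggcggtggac
Cdk1: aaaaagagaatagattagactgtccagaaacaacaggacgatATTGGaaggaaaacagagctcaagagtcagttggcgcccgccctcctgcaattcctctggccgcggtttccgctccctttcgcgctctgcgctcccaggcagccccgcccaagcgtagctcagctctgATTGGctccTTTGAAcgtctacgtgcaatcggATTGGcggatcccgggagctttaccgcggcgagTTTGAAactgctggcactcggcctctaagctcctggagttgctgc
Ube2c: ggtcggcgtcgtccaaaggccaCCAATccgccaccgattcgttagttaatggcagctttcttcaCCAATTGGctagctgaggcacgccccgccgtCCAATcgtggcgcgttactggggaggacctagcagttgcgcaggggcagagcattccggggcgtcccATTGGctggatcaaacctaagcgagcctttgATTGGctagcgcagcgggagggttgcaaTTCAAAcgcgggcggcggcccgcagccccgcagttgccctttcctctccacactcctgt
In Ube2c a CCAAT and an ATTGG overlap within CCAATTGG. The Ccnb1 window holds 2 CCAAT boxes and no TTTGAA. Both motifs were chosen after the calls were seen. Over windows of 300 bases, TTTGAA was in 15 of 20 promoters of the mitosis list (75%), in 34.8% of promoters of genes called higher, in 8% of those called lower and in 17.9% of all 32851 promoters. CCAAT was in 18 of 20 (90%), and in 34.8%, 24% and 37.4% of the other sets in that order. The 20 mitosis promoters belong to 20 of the 24 genes, and Ccna2 and Aurkb are not among them.

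DNA replication genes were positive in sign but held no call. All 25 tested members had a positive sign, but edgeR called 0 over all genes tested (10 higher at an unadjusted p below 0.05, and 6 called by DESeq2), with a median of 0.89. Gins2, a subunit of the replicative helicase, was at 105 and 116 CPM against 32.4 and 20.2 CPM (2.07 ± 0.40, edgeR adjusted p = 0.0575), and Pcna, the sliding clamp, at 496 and 308 CPM against 197.0 and 197.5 CPM (1.03 ± 0.33, adjusted p = 0.157). The median of this list was 1.25 without CD48dim replicate 1 and 0.60 without replicate 2. Of 16 tested quiescence and cell cycle inhibitor genes, 0 were called (2 higher and 5 lower at an unadjusted p below 0.05, and 2 higher and 1 lower by DESeq2). The inhibitor gene Cdkn1a was at 46.0 and 47.1 CPM in CD34bright and 6.46 and 7.70 CPM in CD48dim (2.72 ± 0.54, edgeR adjusted p = 0.0575). The imprinted RNA Meg3 was at 0 and 1.21 CPM against 22.5 and 82.6 CPM (edgeR adjusted p = 0.104).

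**Figure D4:**
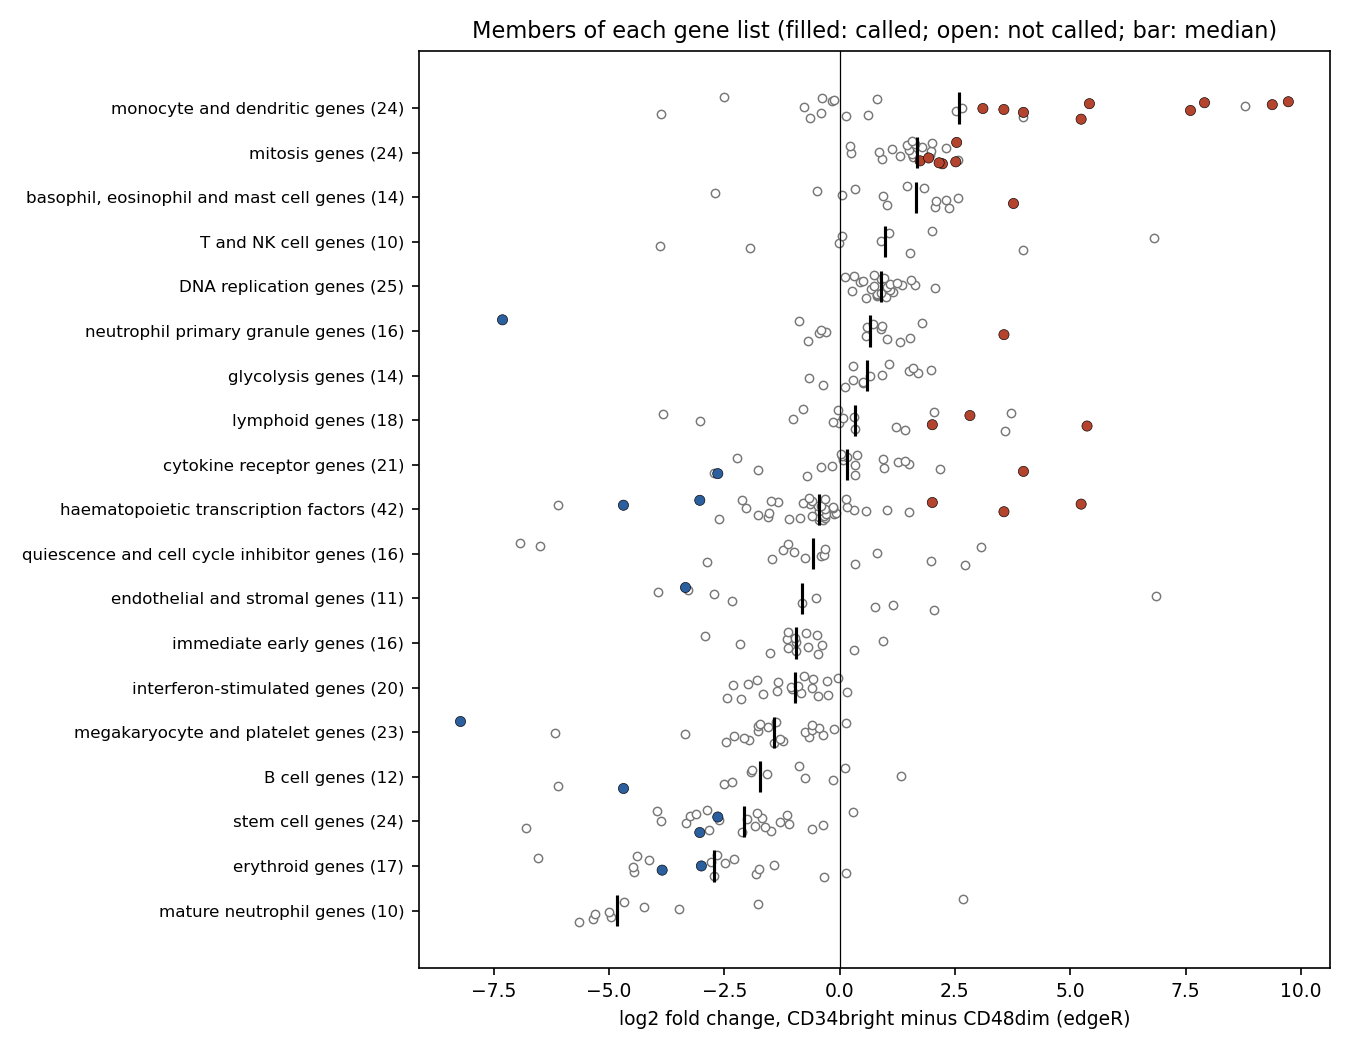
Log2 fold change of CD34bright against CD48dim (x axis) for each tested member of 19 gene lists (y axis, with the number tested), with filled points for called genes, open points for genes not called and a bar at the median. All 24 mitosis genes and all 25 DNA replication genes lie to the right of 0, while 23 of 24 stem cell genes lie to its left.

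Of the stem cell genes, 24 of 25 were tested, and Mecom was among those called lower in CD34bright cells. Mecom, a transcription factor that stem cells need (chromosome 3, 29951296 to 30548008), was at 8.82 and 13.2 CPM in CD34bright and 63.8 and 116 CPM in CD48dim. The fractions were apart, and Mecom changed by -3.03 ± 0.52 (edgeR adjusted p = 0.0435). Of the 24, 23 had a negative sign with a median of -2.06, and 15 were lower at an unadjusted p below 0.05. The surface receptor genes Procr and Esam, which are used to sort stem cells, were at 5.42 and 4.76 CPM against 47.7 and 54.4 CPM and at 2.58 and 3.70 CPM against 53.7 and 38.1 CPM (edgeR adjusted p = 0.0575 and 0.0721). Gata2, by contrast, was at 320 and 482 CPM against 385 and 646 CPM, where the fractions overlapped. The list's median was -2.26 without CD48dim replicate 1 and -2.48 without replicate 2, and limma-voom called 4 members lower. The summed level of the list was 1075 and 1354 CPM in CD34bright and 2995 and 3734 CPM in CD48dim.

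Of the megakaryocyte and platelet genes, 23 of 26 were tested, 22 had a negative sign and 1 was called. Slco2a1, a prostaglandin transporter (chromosome 9, 102988712 to 103096002), was at 0.206 and 0.142 CPM in CD34bright and 28.9 and 82.3 CPM in CD48dim, and its log2 fold change was -8.22 ± 1.05 (edgeR adjusted p = 0.0289). It lay at 0.0457 and 0.0394 CPM on average in CD48bright and CD41/CD9-negative cells, so that only the CD48dim libraries held it at more than 1 CPM. Mmrn1, a protein of platelet granules, was at 15.2 and 42.7 CPM against 190.4 and 401 CPM and did not pass (-3.35 ± 0.62, adjusted p = 0.053). The list summed to 765 and 934 CPM in CD34bright and 1510 and 1833 CPM in CD48dim. Pf4, platelet factor 4, was at 2.17 and 7.75 CPM against 19.5 and 7.15 CPM, Itgb3, the partner of CD41, was at 54.9 and 48.3 CPM against 103 and 59.6 CPM, and Gp6 was at 0 counts in all 4 libraries. The transcription factor genes of the lineage Fli1 and Gata1 had log2 differences of -0.13 and -0.44. The list's median was -1.43, and it was -1.20 without CD48dim replicate 1 and -1.52 without replicate 2.

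Of 17 erythroid genes, all tested, 16 had a negative sign and 2 were called. Car1, a carbonic anhydrase of red cell precursors (chromosome 3, 14766216 to 14808368), was at 35.2 and 51.9 CPM in CD34bright and 337 and 357 CPM in CD48dim, and its log2 fold change was -2.99 ± 0.47 (edgeR adjusted p = 0.0374). Ermap, an erythroid membrane protein (chromosome 4, 119175457 to 119190011), was at 3.76 and 7.96 CPM against 116 and 52.1 CPM, a log2 fold change of -3.85 ± 0.62 (adjusted p = 0.0374). Neither gene overlapped between the fractions. Car1 had means of 311 and 296 CPM in CD48bright and CD41/CD9-negative cells, near the CD48dim level, so CD34bright was the low fraction of the 4. Epor, the erythropoietin receptor, was at 4.07 and 9.31 CPM against 35.6 and 52.9 CPM and was not called (adjusted p = 0.0795), and Tfrc, the transferrin receptor, had a difference of 0.14 ± 0.35. Haemoglobin transcripts summed to 6.96 and 26.7 CPM in CD34bright and 288 and 53.0 CPM in CD48dim. The median of the list was -2.73, and it was -1.78 without CD48dim replicate 1 and -2.95 without replicate 2.

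**Figure D5:**
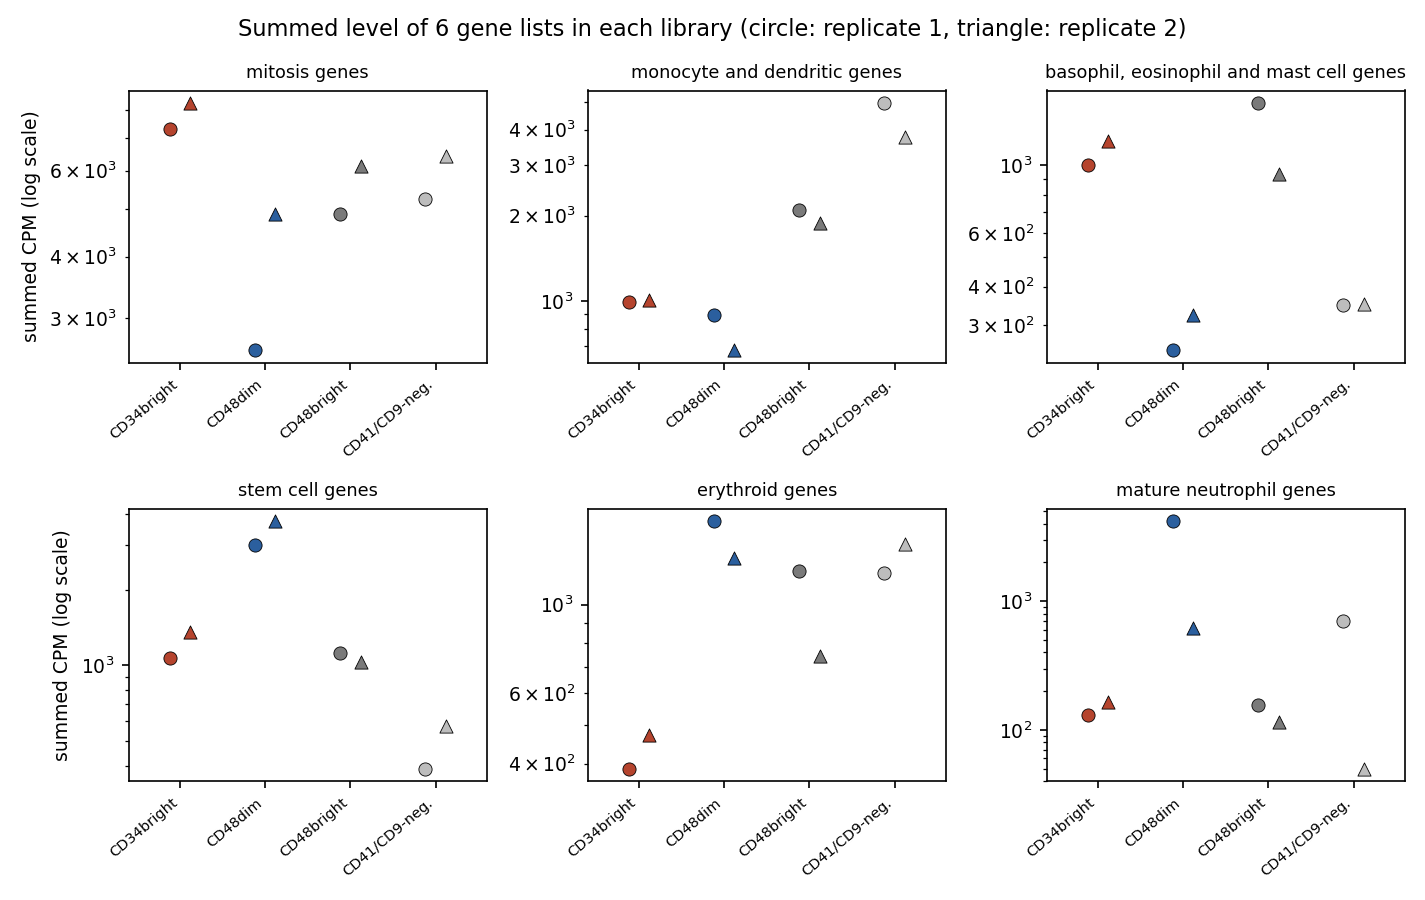
Summed level of 6 gene lists in each of the 8 libraries, in CPM on log scales, with circles for replicate 1 and triangles for replicate 2. The stem cell list sums to 1075 and 1354 in CD34bright and 2995 and 3734 in CD48dim, and the mature neutrophil list reaches 4175 in CD48dim replicate 1 against 625 in replicate 2.

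Among 11 tested endothelial and stromal genes (12 in the list), Bgn was the only call. Bgn, the matrix proteoglycan biglycan (chromosome X, 73483602 to 73495933), was at 8.66 and 13.4 CPM in CD34bright and 89.9 and 136 CPM in CD48dim, and its log2 fold change was -3.36 ± 0.51 (edgeR adjusted p = 0.0374). It was detected in CD48bright at a mean of 5.34 CPM and in CD41/CD9-negative cells at 0.0394 CPM. Some members of the list were at or near 0 in CD48dim and others were not. Cdh5, Plvap and Col3a1 were at 0 counts in both CD48dim libraries, and Col1a1 was at 1.40 and 0 CPM there. The list summed to 147 and 167 CPM in CD34bright and 276 and 310 CPM in CD48dim, of which Bgn was only a part. At an unadjusted p below 0.05 in edgeR, 1 member was higher and 3 were lower. The median of this list was -0.82, and 0.97 without CD48dim replicate 1.

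Read by molecular role, cytokine receptors and transcription factors held few calls beyond those already named. Among 21 cytokine receptor genes, all tested, Csf1r was called higher. Csf2rb, the shared beta chain of the receptors for interleukin 3, interleukin 5 and granulocyte-macrophage colony stimulating factor, was at 228 and 225 CPM against 73.6 and 26.8 CPM and was not called (2.17 ± 0.45, edgeR adjusted p = 0.0676). Csf3r, the granulocyte colony stimulating factor receptor, had -0.40 ± 0.39. Of 42 transcription factor genes, Irf8, Cebpa and Satb1 were called higher and Mecom and Ebf1 lower, and 33 of 42 had a negative sign with a median of -0.44. The myeloid factor PU.1, encoded by Spi1, was at 100.3 and 155 CPM against 57.8 and 31.3 CPM (1.52 ± 0.48, adjusted p = 0.149), Runx1 had 0.31 ± 0.48 and Hlf, a stem cell factor, -2.11 ± 0.56 (adjusted p = 0.107).

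Other genes with large increases joined unlike functions. Cnn3, an actin-binding calponin, was at 16.8 and 9.81 CPM against 0.367 and 0.55 CPM, a rise of 4.88 ± 0.54 (edgeR adjusted p = 0.0239). Fam83d, a spindle protein, was at 21.6 and 25.0 CPM against 0.881 and 1.51 CPM, a rise of 4.30 ± 0.68 (adjusted p = 0.0374). Pyhin1, of the interferon-inducible family that also holds Ifi205, was at 26.8 and 24.6 CPM against 0.808 and 2.61 CPM, a rise of 3.98 ± 0.57 (adjusted p = 0.0368). In each of these genes every CD34bright library was several times above every CD48dim library. BC035044 rose by 3.68 ± 0.53, the histone gene Hist1h2bk by 3.38 ± 0.56 and Ttyh2, of the tweety family, by 3.23 ± 0.57, with adjusted p-values of 0.0368 to 0.046. Hist1h2bk was not called with the length trend removed (2.13, adjusted p = 0.174). By deposited TPM, which allows for length, H2afz, a histone variant gene, stood at a mean of 4898 in CD34bright and 1420 in CD48dim. Cpa3 stood at 644 and 70.8 TPM, Irf8 at 86.9 and 2.20 TPM, and Cx3cr1 at 4.82 and 0.02 TPM.

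Genes with large decreases were often long. The 28 called lower had a median effective length of 5068 bases, against 2316 for the 48 called higher and 2536 for all tested genes, and 17 of the 28 (60.7%) were in the longest 25% of tested genes. Over that longest 25% the median log2 difference was -0.35, and over the shortest 25% it was 0.27. It was -0.16 and 0.10 between the libraries numbered 1, and -0.35 and 0.73 between those numbered 2. With the length trend removed, 27 of the 28 lower calls and 39 of the 48 higher calls were kept, and the lost lower call was Syne2 (-0.72, adjusted p = 0.286).

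The giant linker protein genes Dst and Syne1 were among the long genes called lower. Dst, dystonin (chromosome 1, 33908225 to 34308661), was at 35.1 and 39.9 CPM in CD34bright and 381.5 and 541 CPM in CD48dim, and its log2 fold change was -3.62 ± 0.41 (edgeR adjusted p = 0.0239), or -2.53 with the length trend removed (adjusted p = 0.0192). Syne1, which ties the nucleus to the cytoskeleton, was at 29.4 and 43.7 CPM against 186 and 240.2 CPM, a log2 fold change of -2.54 ± 0.41 (adjusted p = 0.0374). Arhgef12, an activator of RhoA, changed by -3.52 ± 0.44 (adjusted p = 0.0289). The fractions were far apart in all 3. Camsap3, a protein of microtubule minus ends, was at 2.94 and 1.56 CPM against 42.4 and 90.1 CPM, a log2 fold change of -4.87 ± 0.72 (adjusted p = 0.0374), although its span overlaps Xab2, which has more counts. Plxna4, a semaphorin receptor gene, changed by -5.05 ± 0.72, Nbea, a vesicle traffic gene, by -4.31 ± 0.74, and Hif3a, of the hypoxia-inducible factor family, by -4.09 ± 0.71 (adjusted p-values 0.0368 to 0.0452). Add2, a red cell membrane skeleton gene, was at 0.0516 and 0.355 CPM against 34.6 and 15.8 CPM, a log2 fold change of -6.97 ± 1.16 (adjusted p = 0.0403). Pkhd1l1 was at 0.361 and 0.426 CPM against 13.1 and 67.9 CPM, a log2 fold change of -6.66 ± 1.07, and Gbp8, a guanylate-binding protein gene, changed by -5.05 ± 0.81 (both adjusted p = 0.0374). With the length trend removed, Arhgef12 stood at -2.83, Plxna4 at -4.35, Nbea at -3.58 and Pkhd1l1 at -5.69, all still called. Tmem56 had 3 counts in CD34bright and 395 in CD48dim, a ratio of 211 with a 95% interval of 71.6 to 1030.

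The CD48bright fraction was compared with CD34bright in the same model. There edgeR called 0 genes (0%) between CD34bright and CD48bright, with 262 at an unadjusted p below 0.05, 49 higher and 213 lower in CD34bright, and a smallest adjusted p of 0.468. DESeq2 called 37, a fit of those 4 libraries 2, and edgeR called 12 without CD48dim replicate 1 and 13 without CD48dim replicate 2. This test is also the test of whether the difference from CD48dim was unlike in the CD34bright and CD48bright fractions, since the CD48dim term drops out. As a description with no test, the CD48bright mean lay nearer to CD34bright than to CD48dim for 45 of the 48 higher genes and 22 of the 28 lower genes. The same held for 71.7% of all tested genes with a positive sign and 69.4% of those with a negative sign, and the called genes were chosen for the difference between CD34bright and CD48dim, so nothing is read from these counts. The exceptions among the higher genes were Ccnb1, Ccnb2 and Ube2c, all of mitosis, with CD48bright means of 73.2, 84.2 and 91.5 CPM. Among the lower genes they were Add2, Atp1b2, Car1, Ermap, Fcnb and Gbp8, of which Add2, Car1 and Ermap are genes of red cells. The CD41/CD9-negative mean lay nearer to CD34bright for 44 of the 48 and 17 of the 28.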

How the data were processed

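Total RNA of sorted cells was amplified and sequenced in 4 fractions with 2 libraries each, grouped by the sort gates in the labels. The deposited tables give an expected count per gene, which need not be whole, and a TPM value, in the layout of RSEM per the file headers. The submitters' processing notes list RSEM 1.3.2, STAR 2.7.2a, edgeR 3.30.3 and mm10. The library kit did not keep the strand, per the labels' protocols. Deposited effective lengths in bases were used for descriptions and offsets. TPM values are the authors' and were only averaged over 2 libraries.

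Expected counts were rounded. Of 24411 genes, 18488 had a count, and 13177 passed filterByExpr and were tested with edgeR 4.0.16 (R 4.3.3): TMM scaling, 1 mean per fraction over all 8 libraries, no replicate block, a two-sided quasi-likelihood F-test (4 residual and 5.46 prior degrees of freedom, biological coefficient of variation 49.8%) and Benjamini-Hochberg adjustment over all genes tested. Genes were called at an adjusted p below 0.05. The SE was taken as the absolute log2 fold change over the square root of F. Levels are CPM of the TMM-scaled total. Per-library log2 differences used a pseudocount of 0.5 CPM. Ratios of counts carry exact 95% intervals, and a count of 0 is set at a floor of 3 counts over the fraction. The code of the test was run on simulated counts whose spread was equal in every library and lower than here. The CD48dim libraries differ from that setting, so the run does not bear on how far these calls can be trusted. Alternatives used limma 3.58.1 and DESeq2 1.42.0.

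Genes, the 20 lists (377 entries) and the comparison were chosen with earlier results of these data known. The text names the 7 sort marker genes, the 12 called genes with the largest change in each direction (at least 8 CPM, no overlap) and up to 4 called members of a list. Further called genes were named after their values were seen, and some called genes are not reported here. Lists are described by counts and medians and were not tested. Positions are of GENCODE on GRCm38, the assembly of mm10, where 23376 symbols matched directly, 670 by synonym and 365 did not. Of the 76 called genes, 15 overlap another counted gene and 8 overlap a gene with at least 30% of their counts (Camsap3, Csf1r, Cx3cr1, Gbp8, Itga1, Kmo, Med12l and Rag2), so these 8 are uncertain. Members of close families (Ifi205, Gbp8, Hist1h2bk, Fcgr3) can share reads that the estimation divides.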

Additional observations from a re-analysis of the deposited data

How the results depend on the processing

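The 76 calls between CD34bright and CD48dim became 1288 with DESeq2, 45 with limma-voom, 1018 with no filter on low counts, 144 with the length trend removed (chosen after seeing the data) and 0 in the fit of the 4 libraries, and ranged from 0 to 3851 with a library left out. Voom with quality weights called 94, 16 higher and 78 lower. The size factors of DESeq2 gave 75, a minimum of 5 CPM 70, an effective length offset 73, the fit without Rn45s and Malat1 76, and 92 were called among the genes of the authors' second table. With the replicate number as a block (replicate block) edgeR called 682, 362 higher and 320 lower, and 672 in a fit of 4 libraries. Deviations of same-numbered libraries correlated at 0.142 to 0.274 over the 6 pairs of fractions, across genes. The labels do not say what the number marks and there are only 2 numbers, so the pairing was not used. Under the block the calls went from 6 to 18 higher in the mitosis list, 9 to 11 higher in the monocyte and dendritic list, 2 to 11 lower in the stem cell list, 2 to 7 lower in the erythroid list, 1 to 3 lower in the megakaryocyte list, 0 to 4 higher in each of the DNA replication and glycolysis lists and 0 to 4 lower in the immediate early list. Of the mature neutrophil list 5 were then called lower and 1 higher. Cd34 was called under the block (1.41, adjusted p = 0.0413) and with DESeq2 (1.41, adjusted p = 0.0115). Between CD34bright and CD48bright the count was 37 with DESeq2, 2 in a fit of those 4 libraries and 0 to 13 with a library left out. The log2 fold change of Cd9 (0.29, not called) reversed with the length trend removed (-0.352) and ranged from -0.136 to 0.876 with a library left out, lowest without CD48dim replicate 1. That of Fcgr3 (0.83, not called) ranged from -0.0496 without CD48dim replicate 2 to 3.65 without CD48dim replicate 1, where it was called (adjusted p = 0.0112). Of the called genes, Irf8 moved from 5.24 to 6.18 with limma-voom, Cpa3 from 3.76 to 4.47 with quality weights and Mecom from -3.03 to -3.69 with the length offset. Where no value shows it, the cause was not tested. The rule named 39 called genes, and DESeq2 called 39 of them, limma-voom 16, voom with quality weights 20 and the fit with the length trend removed 36, with 0 reversed. Of 420 list medians under alternatives, 36 moved beyond the replicate spread. With 2 libraries a fraction, and the CD48dim libraries far apart, genes that were not called may still differ.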

Other observations

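Several genes of chromosome segregation and DNA repair outside the mitosis list were also called higher in CD34bright, and are named here after their values were seen. Trip13, a remodeller of the spindle checkpoint, was at 118 and 96.4 CPM in CD34bright and 12.8 and 11.1 CPM in CD48dim, and its log2 fold change was 3.16 ± 0.43 (edgeR adjusted p = 0.0301). Nuf2, of the kinetochore, was at 108 and 90.7 CPM against 18.1 and 19.9 CPM, and Cep55, which acts in the final cut between daughter cells, at 65.4 and 56.0 CPM against 7.19 and 8.11 CPM. In all 3 the libraries of a fraction lay close together and the fractions apart. Ncaph, a condensin subunit, Shcbp1, of the midbody, and the mitotic kinase gene Pbk had log2 fold changes of 1.88, 2.42 and 2.22. Pbk missed the threshold with the length trend removed (adjusted p = 0.0517). The resolvase gene Gen1, Bard1, the partner of BRCA1, and 2810417H13Rik, which binds the sliding clamp, had log2 fold changes of 2.27, 2.06 and 2.66. The histone variant gene H2afz was at 2202 and 2805 CPM against 528 and 564 CPM (2.20 ± 0.36, adjusted p = 0.04), and was not called with the length trend removed (adjusted p = 0.102).

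Surface and matrix genes were among the rest of the higher calls. Emb, the adhesion protein embigin, was at 538 and 449 CPM against 53.4 and 69.3 CPM (3.01 ± 0.38, edgeR adjusted p = 0.0289). F13a1, a clotting factor subunit of monocytes and platelets, was at 181 and 126 CPM against 28.4 and 30.8 CPM (2.38 ± 0.37, adjusted p = 0.0374). In both genes the fractions did not overlap. The integrin gene Itga1 had 157 counts against 2, a ratio of 49 (13.3 to 408), but its span overlaps Pelo, which has 1528 counts over the 8 libraries against 906. Ctnnd2, delta catenin, was at 0 counts in CD48dim and at least 13.1-fold higher. Among the lower calls outside the lists, Klf3, a transcriptional repressor, was at 25.1 and 40.1 CPM against 124.5 and 153 CPM, and Lat, a signalling adaptor of T cells and platelets, at 11.2 and 12.2 CPM against 87.9 and 63.2 CPM. Their log2 fold changes were -2.09 and -2.69 (edgeR adjusted p = 0.0435 and 0.0374).

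In 3 lists of cell state edgeR called 0 genes over all genes tested. Over all 13177 genes, 1088 were higher and 1417 lower at an unadjusted p below 0.05 in edgeR, and DESeq2 called 537 higher and 751 lower. Of 16 immediate early genes, 8 were lower at an unadjusted p below 0.05 (4 called by DESeq2), with a median of -0.95, and Fosb was at 238 and 477 CPM against 648 and 1382 CPM. Of 20 interferon-stimulated genes, 7 were lower at that level (5 by DESeq2), with a median of -0.96, and Oas2 was at 6.96 and 7.61 CPM against 36.4 and 35.6 CPM (adjusted p = 0.0622). Of 14 glycolysis genes, 4 were higher at that level (2 by DESeq2), with a median of 0.59 that became 1.72 without CD48dim replicate 1 and 0.26 without replicate 2. Gapdh was at 3808 and 3783 CPM against 1257 and 1067 CPM (1.71 ± 0.42, adjusted p = 0.0921).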
